A study of Homo sapiens with 18 samples.

Results

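The insulin-like growth factor binding proteins, IGFBP1 to IGFBP7, were followed across 6 groups of A549 cells, an established line from a human lung adenocarcinoma. Members were taken by gene symbol: 6 of the 7 had a probe set that names no other gene, out of 18377 genes measured this way. The probe set of IGFBP6 is listed under C12orf57 as well, so IGFBP6 was not analysed here. Each of the 6 genes had 1 such probe set, so the rule that keeps the brightest probe set per gene decided nothing among them. The family was chosen with earlier results of these arrays known, among them the higher IGFBP5 level at 24 h than at 8 h in siControl, which is therefore described below without a p-value. Every other IGFBP5 difference that uses the siControl 24 h arrays depends on the same values, so these are given with intervals and no p, and a call of IGFBP5 within a count of members is no support.

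Cells carried siRNA (siPKCiz) against PKCiota and PKCzeta, the kinases that make up the atypical protein kinase C class, or a control siRNA (siControl). In each arm cells had no TGFβ, or 250 pM TGFβ for 1 h followed by washing, with RNA taken 8 h or 24 h after the ligand was added; all were grown in 10% serum and starved of it, and treated cells then stayed in 0.2% serum. Each of the 6 groups had 3 biological replicates, 18 arrays in all, and the number of arrays limits the precision. The labels give the untreated arrays no time, so the time in culture and the ligand cannot be told apart where these are the comparator, and no label says whether replicates were separate cultures, so the p-values measure the spread between these arrays. The design asks what TGFβ did to each gene when the atypical PKCs were silenced and when they were not.

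IGF binding proteins are secreted and hold IGF1 and IGF2 outside the cell; by doing so they keep the ligands from the IGF1 receptor, or store them and release them when proteases cut the binding protein. IGFBP1 to IGFBP6 bind IGFs tightly and share conserved cysteine-rich domains at both ends, whereas IGFBP7 has a related N-terminal domain, binds IGFs weakly, and is deposited in the matrix. TGFβ is a known regulator of IGFBP3 and IGFBP5 in fibroblasts and epithelial cells, and IGFBP1 is known as a gene that insulin represses through FOXO factors.

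Promoter sequences are shown for 3 members whose transcripts behaved differently: IGFBP5, for whose difference the family was chosen, IGFBP2, which had the narrowest, and IGFBP4, which moved little and has a TATA box string. They are from RefSeq on GRCh38.p14 and hold 250 bases before the start, 5′ to 3′ on the gene's own strand. Capitals mark CAGAC, a SMAD-binding letter string, read on either strand (GTCTG on the other), and TATAAA.
IGFBP5, chr2:216695550-216695799, minus strand: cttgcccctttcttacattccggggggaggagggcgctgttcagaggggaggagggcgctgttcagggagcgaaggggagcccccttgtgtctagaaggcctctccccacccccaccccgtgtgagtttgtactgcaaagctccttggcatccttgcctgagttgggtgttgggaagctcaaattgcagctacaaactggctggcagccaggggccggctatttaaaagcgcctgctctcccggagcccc
IGFBP2, first of 3 listed starts, chr2:216632578-216632827, plus strand: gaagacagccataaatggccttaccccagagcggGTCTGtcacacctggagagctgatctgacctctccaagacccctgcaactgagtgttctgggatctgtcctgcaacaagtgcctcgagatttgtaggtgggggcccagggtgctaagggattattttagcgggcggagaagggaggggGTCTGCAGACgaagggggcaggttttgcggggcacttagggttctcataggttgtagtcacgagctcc
IGFBP4, chr17:40443200-40443449, plus strand: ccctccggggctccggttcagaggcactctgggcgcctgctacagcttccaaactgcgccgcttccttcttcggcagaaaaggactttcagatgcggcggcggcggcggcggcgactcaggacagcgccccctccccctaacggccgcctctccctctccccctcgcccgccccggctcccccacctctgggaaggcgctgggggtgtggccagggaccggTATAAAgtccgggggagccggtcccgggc

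IGFBP2 and IGFBP5 lie next to each other on chromosome 2 on opposite strands, with 0 protein-coding genes between them, and IGFBP1 and IGFBP3 are likewise neighbours on chromosome 7. The IGFBP2 window shown held CAGAC at 3 places, starting at -216, -68 and -63 from the start, of which the last 2 abut. Of the windows of its other listed starts, that from chr2:216659317 held CAGAC only at -113. The window from chr2:216633170 held no CAGAC. IGFBP4 held TATAAA at -29. The IGFBP5 window held neither, and it held no TGANTCA, an AP-1 string; all 3 strings were searched on both strands. Among 35116 promoter windows of this length, 38.0% held CAGAC, 6.6% held TGANTCA and 10.7% held TATAAA. A match is a description of these letters only.

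The arrays were checked before the genes were compared. The PKCiota gene PRKCI differed by -2.24 ± 0.052 log2 units between siPKCiz and siControl (SE; mean over the 3 conditions; limma adjusted p = 1.98e-15). The PKCzeta gene PRKCZ was lower by -1.07 ± 0.14 (limma adjusted p = 3.43e-05), but unevenly. In replicates 2 and 3 the siPKCiz arrays held 33.1 to 40.0% of the PRKCZ intensity of the same-numbered siControl array, and in replicate 1 they held 68.2 to 91.4%. Replicates 2 and 3 were also the closest pair in 6 of 6 groups, by correlations across genes that lay between 0.992 and 0.998 over all pairs of replicates. Replicate 1 therefore stands apart. Silencing results of the IGF binding protein genes, and of the other tested genes named for a silencing difference, are given with and without replicate 1. Marker genes are described over all arrays only, with no test. Epithelial and A549 markers were above the median gene in 6 of 6 cases, endothelial markers in 0 of 6 and hepatocyte markers in 0 of 4; the fibroblast list had 1 of 7 above it (THY1), the leukocyte list 1 of 5 measured (CD68) and the alveolar type 2 list 1 of 5 measured (ABCA3).

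**Figure D1:**
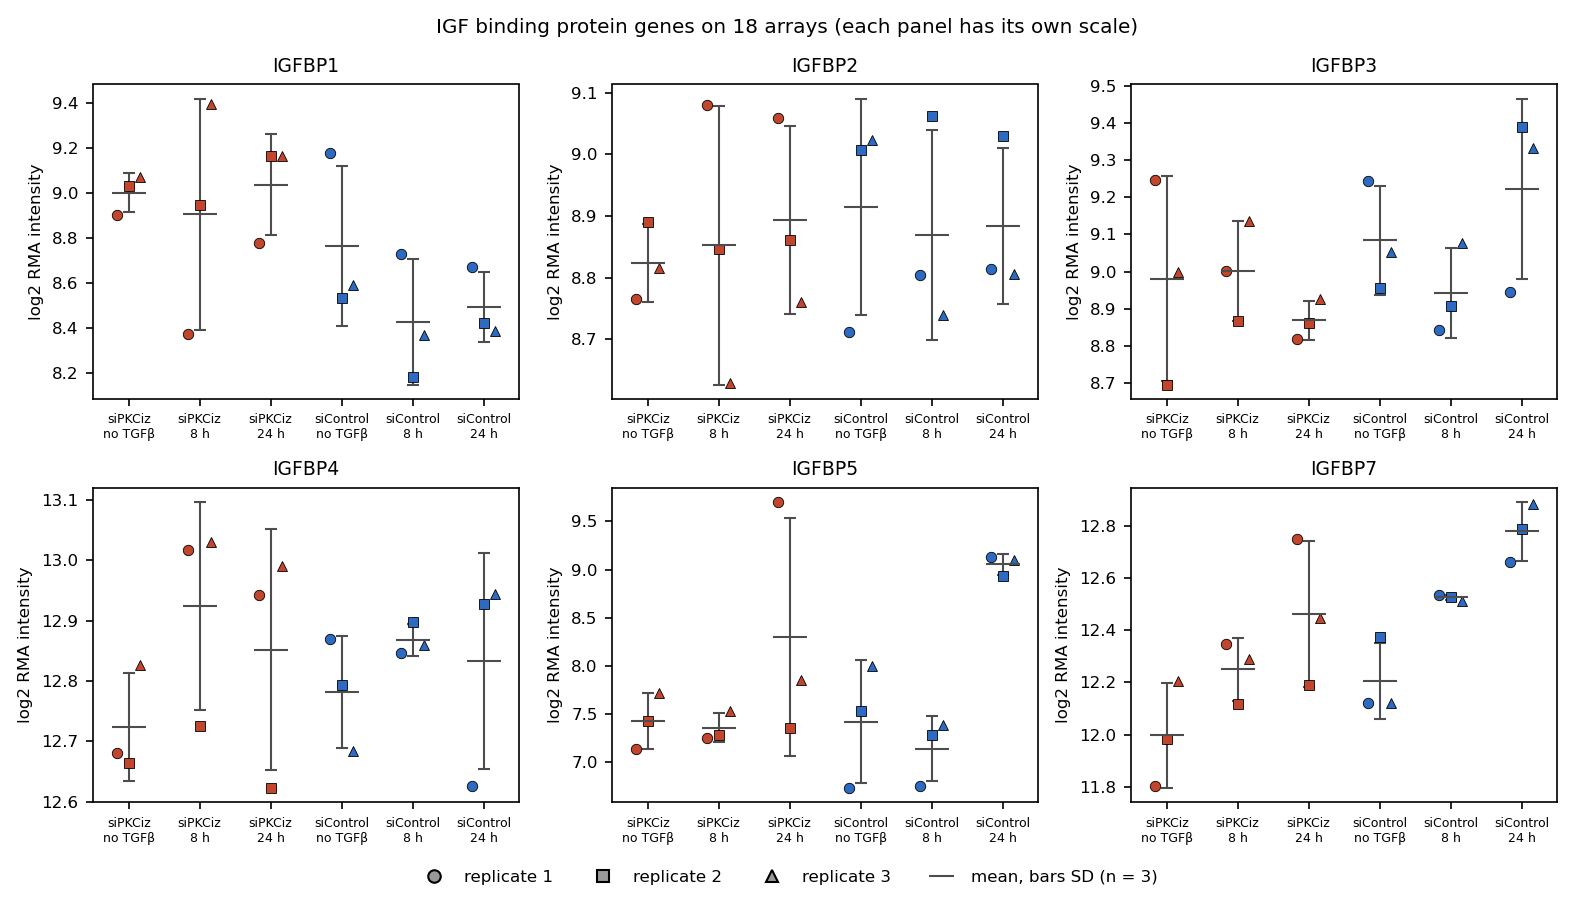
Log2 RMA intensity (vertical axis) of the 6 measured IGF binding protein genes in each group of 3 arrays, numbered by replicate, with group means. IGFBP5 spanned the widest range, with siControl at 24 h between 487.8 and 560.0 intensity units, and in siPKCiz at 24 h its replicate 1 array (830.5) lay far from the other two (164.4 and 230.9).

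IGFBP7 rose after TGFβ in both arms, and IGFBP5 was high in siControl at 24 h. At 24 h, 1 of the 6 members passed the test in siPKCiz (IGFBP7), where 10.7% of all genes were called, and 2 of 6 passed in siControl (IGFBP5, for which the family was chosen, and IGFBP7), where 12.3% were. At 8 h, 0 of 6 passed in siPKCiz (6.48% of all genes) and 0 of 6 in siControl (11.4%); at an unadjusted limma p under 0.05 there were 0 and 1. The threshold for a call was an adjusted p under 0.05, with Benjamini-Hochberg adjustment across the 18377 genes. No member was called lower after TGFβ in either arm. The TGFβ comparisons of one arm share that arm's untreated arrays. The median change of the 6 members at 24 h was 0.099 log2 units in siPKCiz, beside -0.008 for all genes, and 0.094 in siControl, beside -0.01.

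IGFBP5, the most conserved of the family and a protein that binds matrix as well as IGFs, was higher at 24 h in siControl and was not called at 8 h in either arm (-0.07 log2 units in siPKCiz and -0.28 in siControl). In siControl its intensity was 106.4, 185.6 and 256.4 without TGFβ (replicates 1, 2 and 3), 108.1, 155.4 and 168.0 at 8 h, and 560.0, 487.8 and 550.2 at 24 h. Every siControl array at 24 h lay above every siControl array of the other conditions, as a description of the arrays the family was chosen by; 11.9% of all genes had siControl 24 h arrays entirely above the untreated ones and 7.3% had them entirely above the 8 h ones. Against no TGFβ the 24 h level was 3.10-fold higher (1.63 log2 units, 95% confidence interval 0.79 to 2.48). The change from 8 h to 24 h was 1.91 log2 units, or 3.76-fold, the difference for which the family was known; it rests on the same 24 h arrays. The share of all genes called in that comparison was 2.41%, and IGFBP5 was the 1 member of 6 counted with them, from which nothing is read. Without the siControl untreated replicate 1 array, the lowest of its group, the change against no TGFβ was 1.28 log2 units and no longer passed. It did not pass either without replicate 2 (1.75) or replicate 3 (1.90). The IGFBP5 means without TGFβ and at 8 h were 7.42 and 7.14 log2 in siControl and 7.43 and 7.36 in siPKCiz. They lay below the median gene (8.04) and near the endothelial marker CLDN5 (7.32) and the hepatocyte marker APOA1 (7.09). The sizes of its 24 h changes therefore rest on a baseline not shown to be above background.

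In siPKCiz the same gene gave a divided picture. Its intensity was 141.0, 172.4 and 210.6 without TGFβ, 152.9, 156.2 and 185.4 at 8 h, and 830.5, 164.4 and 230.9 at 24 h. The replicate 1 array at 24 h was the highest of all 18, while replicates 2 and 3 stayed near the range of the earlier arrays. The 24 h change over no TGFβ averaged 0.87 log2 units (95% confidence interval 0.03 to 1.72; limma adjusted p = 0.195), and over 8 h it averaged 0.94 ± 0.40 (SE; limma adjusted p = 0.346). Neither passed the test. In the 24 h over 8 h comparison of siPKCiz 0 of 6 members were called, beside 0.805% of all genes, and 1 had an unadjusted limma p under 0.05. Without replicate 1 the change over no TGFβ was 0.03 log2 units (-0.32 to 0.38) in siPKCiz and 1.25 (0.90 to 1.60) in siControl; without the siPKCiz 24 h replicate 2 array it was 1.35 in siPKCiz, with a limma adjusted p of 0.0367. The array at 830.5 comes from the replicate number in which siPKCiz and siControl stood closest in PRKCZ, and the part of that in the result was not tested.

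The difference of IGFBP5 between the arms at 24 h therefore turned on 1 library. Over all arrays siPKCiz was lower than siControl by -0.75 log2 units (95% confidence interval -1.60 to 0.10), and the groups overlapped. Without replicate 1 it was lower by -1.41 (-1.76 to -1.06), and without only the siPKCiz 24 h replicate 1 array by -1.45. The silencing difference in the 24 h response itself, siPKCiz change minus siControl change, was -0.76 (-1.95 to 0.44) over all arrays and -1.22 (-1.71 to -0.72) without replicate 1. In the mean of the conditions siPKCiz over siControl was -0.18 (-0.66 to 0.31) with all arrays and -0.51 (-0.71 to -0.31) without replicate 1. With all arrays 0 of 6 members were called for this difference at 24 h, and 0 of 6 for that at 8 h, where 0% of all genes were called at either time; at an unadjusted limma p under 0.05 there were 0 members at either time, beside 705 of 18377 genes at 24 h and 625 at 8 h.

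IGFBP7, a matrix protein also called angiomodulin, rose in both arms. Its intensity in siPKCiz was 3574.2, 4047.2 and 4723.7 without TGFβ, 5217.7, 4438.0 and 5005.5 at 8 h, and 6892.4, 4678.1 and 5579.0 at 24 h. In siControl it was 4452.5, 5308.2 and 4456.5 without TGFβ, 5936.5, 5911.5 and 5849.1 at 8 h, and 6484.1, 7071.5 and 7570.1 at 24 h. The means increased at each step in both arms. In siControl the 8 h arrays lay entirely above the untreated ones, as for 12.4% of all genes, and the 24 h arrays entirely above the 8 h ones, as for 7.3%. At 24 h it was higher by 0.47 ± 0.13 log2 units in siPKCiz (1.38-fold; SE; limma adjusted p = 0.0203) and by 0.57 ± 0.13 in siControl (1.49-fold; 0.00417). At 8 h the changes were 0.25 in siPKCiz (limma adjusted p = 0.299) and 0.32 in siControl (0.116), neither of which passed. The arms were not shown to differ in this response at 24 h: the difference was -0.11 ± 0.18 log2 units (95% confidence interval -0.48 to 0.26). Without replicate 1 this difference was larger, at -0.365 (-0.71 to -0.019, limma adjusted p = 0.691), and did not pass either.

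The siPKCiz call of IGFBP7 was fragile. Without replicate 1 the 24 h change was 0.23 log2 units (limma adjusted p = 0.268) and without replicate 3 it was 0.58 (0.0856). Leaving out single arrays ended it as well: 0.32 (0.147) without the 24 h replicate 1 array, 0.37 (0.117) without the untreated replicate 1 array and 0.46 (0.0591) without the untreated replicate 2 array. In siControl the call ended without replicate 3 (0.48, 0.157). The summed intensity of 7 fibroblast markers, a list in which THY1 alone lay above the median gene, was also higher at 24 h: it was 1256 to 1389 at 24 h against 930 to 1022 without TGFβ in siPKCiz, and 1308 to 1346 against 1021 to 1142 in siControl. At 8 h, where the IGFBP7 means were already higher, the sum was 936 to 1023 in siPKCiz and 1000 to 1078 in siControl, overlapping the untreated range in both arms. Of its genes LUM, for lumican, was at 456 against 254 in siPKCiz and 365 against 150 in siControl (group means at 24 h and without TGFβ). THY1 was at 268 against 250 in siPKCiz and 405 against 429 in siControl, and DCN stayed between 59 and 67 in every group mean; their part in the results was not tested. In bulk RNA a change in the share of cells that express a gene and a change per cell cannot be told apart.

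**Figure D2:**
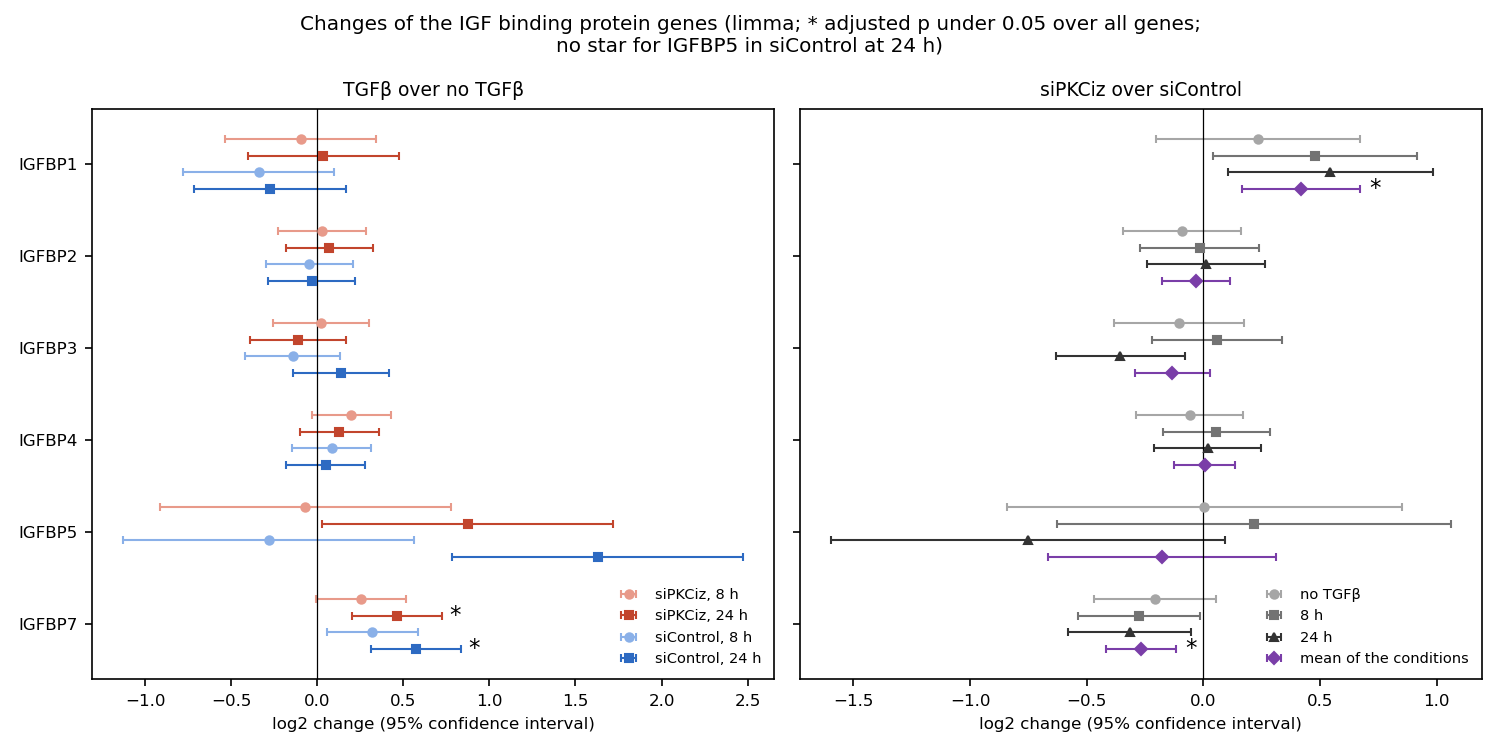
Log2 change with 95% confidence interval (horizontal axis) of each member after TGFβ in the siPKCiz and siControl arms, left, and in siPKCiz over siControl in each condition and as their mean, right; stars mark a limma adjusted p under 0.05, with none drawn for IGFBP5 in siControl at 24 h because the family was chosen with that group known. IGFBP5 and IGFBP7 stand right of 0 at 24 h in both arms, with the IGFBP5 interval in siPKCiz reaching down to 0.03 and no call there. The mean silencing differences of IGFBP1 (0.42) and IGFBP7 (-0.27) carry the stars on the right.

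Silencing differences of IGFBP1 and IGFBP7 were called in opposite directions, but neither call held without replicate 2 or replicate 3. The share of all genes called in the mean of the conditions was also lower there, at 4.55% without replicate 2 and 4.56% without replicate 3. In the mean of the 3 conditions 1 of 6 members was higher in siPKCiz (IGFBP1) and 1 lower (IGFBP7), beside 11.8% of all genes higher and 8.17% lower, 19.9% in all. Within single conditions 0 of 6 members passed: without TGFβ (3.58% of all genes), at 8 h (5.41%) and at 24 h (3.19%), with 0, 2 and 3 members at an unadjusted limma p under 0.05. The median difference of the members was -0.083 log2 units, beside -0.007 for all genes. Without replicate 1, 4 of 6 were called in the mean, beside 31.4% of all genes, and 4 of 6 at 24 h, beside 11.3%, IGFBP5 among them both times; 1 was called without TGFβ (8.23%) and 1 at 8 h (19%).

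IGFBP1, the form that circulates from liver and falls with insulin, was the member that was higher in siPKCiz. Its intensity in siPKCiz was 478.5, 523.1 and 537.5 without TGFβ, 331.3, 493.0 and 674.3 at 8 h, and 438.9, 574.2 and 574.6 at 24 h. In siControl it was 578.1, 370.4 and 384.9, then 424.6, 290.3 and 330.4, then 407.0, 342.8 and 334.3 over the same conditions. At 24 h the arms did not overlap, which held for 8.73% of all genes in this direction; in the other 2 conditions they did. The mean difference was 0.42 ± 0.12 log2 units (1.34-fold; SE; limma adjusted p = 0.0193), made of 0.24 without TGFβ, 0.48 at 8 h and 0.55 at 24 h. Replicate 1 held it down: replicates 2 and 3 lay between 493.0 and 674.3 in siPKCiz and between 290.3 and 384.9 in siControl, whereas replicate 1 lay between 331.3 and 478.5 in siPKCiz and between 407.0 and 578.1 in siControl.

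Without replicate 1 the IGFBP1 difference was 0.72 ± 0.07 log2 units in the mean of the conditions (limma adjusted p = 1.13e-06), and it passed in each: 0.49 without TGFβ (0.017), 0.90 at 8 h (0.000104) and 0.76 at 24 h (0.000429). Without replicate 2 it was 0.30 (0.359) and without replicate 3 it was 0.25 (0.396). In the replicate 1 arrays PRKCZ was at 68.2 to 91.4% of the same-numbered siControl array, itself low in PRKCZ. PRKCI was at 17.4 to 20.8% there, beside 19.8 to 23.3% in replicates 2 and 3. The part of PRKCZ in the difference was not tested. After TGFβ the IGFBP1 difference was -0.10 log2 units at 8 h and 0.04 at 24 h in siPKCiz, and -0.34 (95% confidence interval -0.78 to 0.10) and -0.27 (-0.71 to 0.17) in siControl, none of which passed. Hepatocyte markers, such as ALB, gave 0 of 4 above the median gene.

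**Figure D3:**
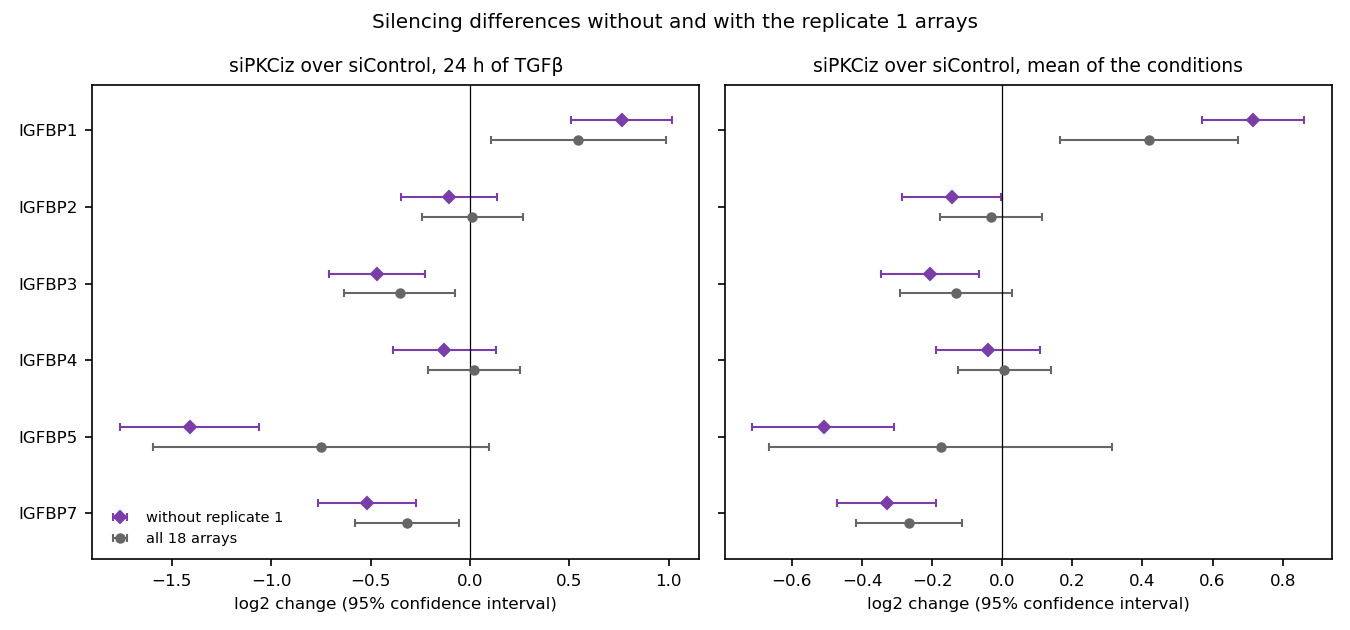
Log2 difference of siPKCiz over siControl with 95% confidence interval (horizontal axis) without replicate 1 and with all 18 arrays, at 24 h of TGFβ, left, and as the mean of the conditions, right. Leaving out replicate 1 moved IGFBP5 at 24 h to -1.41 from -0.75, and IGFBP1 in the mean to 0.72 from 0.42.

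IGFBP7 was the member that was lower in siPKCiz. The mean difference was -0.27 ± 0.07 log2 units (1.20-fold lower; SE; limma adjusted p = 0.0134), and it was -0.21 without TGFβ, -0.28 at 8 h and -0.32 at 24 h. At 8 h every siPKCiz array lay below every siControl array, which held for 11.8% of all genes in this direction. Other genes differed with it in group mean intensity: THY1 was at 250 in siPKCiz against 429 in siControl without TGFβ, 234 against 351 at 8 h and 268 against 405 at 24 h. LUM was at 254 against 150, 215 against 144 and 456 against 365, and EPCAM, an epithelial marker, at 1130 against 792, 803 against 548 and 776 against 337; their part in the result was not tested. Without replicate 1 the mean difference was -0.33 (0.00129) and the 24 h difference -0.52 (0.00698), and without the siPKCiz 24 h replicate 1 array alone the 24 h difference was -0.46 (0.0391). Without replicates 2 or 3 the mean difference was -0.17 (0.302) and -0.30 (0.107). Across the 6 groups its lowest mean was in siPKCiz without TGFβ (11.997 ± 0.20 log2, SD, n = 3) and its highest in siControl at 24 h (12.78 ± 0.11), which alone did not overlap its neighbour in that order, siControl at 8 h (12.53 ± 0.01).

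IGFBP3, the main IGF carrier of serum, was called for silencing in no comparison with all arrays. Its intensity in siPKCiz was 607.5, 414.5 and 511.9 without TGFβ, 512.8, 466.4 and 562.8 at 8 h, and 451.7, 464.8 and 485.9 at 24 h. In siControl it was 606.9, 496.5 and 531.3, then 459.0, 480.2 and 540.3, then 492.6, 671.3 and 645.3. The 24 h groups did not overlap, which held for 9.08% of all genes with siPKCiz lower. The difference was -0.36 ± 0.13 log2 units (SE; 95% confidence interval -0.63 to -0.08; limma adjusted p = 0.175), which did not pass. It passed without replicate 1 (-0.47, 0.0126) and without the siControl 24 h replicate 1 array (-0.49, 0.0385). Its mean silencing difference of -0.13 became -0.21 without replicate 1 (0.026). The silencing difference in its 24 h response was -0.25 (-0.64 to 0.14) with all arrays and -0.31 (-0.66 to 0.03) without replicate 1, and neither passed. At 24 h the TGFβ difference was -0.11 (95% confidence interval -0.39 to 0.17; limma adjusted p = 0.662) in siPKCiz and 0.14 (-0.14 to 0.42; 0.603) in siControl, and neither passed; the value in siControl without replicate 1 was 0.36 (0.0442).

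IGFBP4 and IGFBP2 were called in no comparison with all arrays. IGFBP4, an inhibitor of IGF action that PAPPA cleaves, lay between 6308.6 and 8363.5 in siPKCiz and between 6325.7 and 7879.0 in siControl over all conditions, and its changes after TGFβ were between 0.05 and 0.20 log2 units; the highest, at 8 h in siPKCiz, had an interval of -0.03 to 0.43. IGFBP2, a binding protein often high in tumours, lay between 396.3 and 541.6 in siPKCiz and between 419.3 and 534.4 in siControl. Its TGFβ changes were between -0.05 and 0.07 log2 units, each with an interval within -0.30 and 0.32. Over the mean of conditions the silencing difference of IGFBP4 was 0.01 (-0.13 to 0.14) with all arrays and -0.04 (-0.19 to 0.11) without replicate 1. That of IGFBP2 was -0.03 (-0.18 to 0.11) with all arrays and -0.14 (-0.28 to -0.003; limma adjusted p = 0.111) without replicate 1. Set against the same-numbered siControl array, the siPKCiz arrays were lower in IGFBP2 in 6 of 6 cases in replicates 2 and 3, by -0.22 to -0.04, and higher in 3 of 3 in replicate 1, by 0.05 to 0.28. Replicate numbers did not pair the samples, and the share of all genes with such a split is not given here, so nothing is read from these counts. With all arrays every pair of groups that stood next to each other in order of mean overlapped for both.

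The range between the lowest and the highest group mean was 1.91 log2 units for IGFBP5, 0.78 for IGFBP7, 0.61 for IGFBP1, 0.36 for IGFBP3, 0.20 for IGFBP4 and 0.09 for IGFBP2, so the neighbours IGFBP2 and IGFBP5 had the narrowest and the widest range. The IGFBP5 range is the siControl 24 h minus 8 h difference for which the family was chosen, so its place as the widest was known from that choice. IGFBP5 had its lowest mean in siControl at 8 h (7.14 ± 0.34, SD, n = 3) and its highest in siControl at 24 h (9.05 ± 0.11), with siPKCiz at 24 h between at 8.30 ± 1.23; each of its groups overlapped the next. Over the 18 arrays, which share their groups, the Pearson r of log2 intensity was 0.68 between IGFBP5 and IGFBP7 and -0.62 between IGFBP1 and IGFBP2; of deviations from group means it was 0.67 and -0.84. These are descriptions over 18 arrays. The values for IGFBP5 and IGFBP7 include the siPKCiz 24 h replicate 1 array, the highest of its group in both genes. It was at 9.70 log2 in IGFBP5, far above the group mean, and at 12.75 in IGFBP7. No r without that array is given, so the 0.67 is not read as shared variation across all groups.

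The rest of the IGF axis was read by lists. Of 8 measured ligands, receptors and carriers, 3 were higher at 24 h in siPKCiz (10.7% of all genes called in either direction) and 1 in siControl (12.3% of all genes, a share close to that of the list), and 0 were lower in either. LRP1, an endocytic receptor that also binds IGFBP3, was higher by 0.77 ± 0.11 log2 units in siPKCiz (SE; limma adjusted p = 0.000107) and by 0.45 ± 0.11 in siControl (0.00938). IGF1 is counted among the 3, but its group means lay between 6.35 and 6.90 log2, among the levels of the hepatocyte and endothelial markers, so no size is read from it. IGF1R, the signalling receptor of both IGFs, was higher by 0.32 in siPKCiz (0.0217), beside 0.16 in siControl (0.276). In the mean of the conditions silencing raised 3 of 8, beside 11.8% of all genes: IGF1R (0.17 ± 0.05; 0.0185), IGF2R, which clears IGF2 (0.15 ± 0.05; 0.0271), and INSR (0.24 ± 0.05; 0.00329), the last chosen after its values were seen. Without replicate 1 these were 0.23 (0.00707), 0.16 (0.0505) and 0.27 (0.00293), so IGF2R no longer passed. The lists were chosen with earlier results of these arrays known.

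The proteases that cut IGF binding proteins, and inhibitors of such proteases, were read next. Of 22 measured, 10 were higher and 1 lower at 24 h in siPKCiz, and 9 higher and 2 lower in siControl, beside 10.7% of all genes called in siPKCiz and 12.3% in siControl, with median changes of 0.32 and 0.37 log2 units beside -0.008 and -0.01 for all genes. MMP2, a gelatinase, was higher by 2.68 ± 0.27 log2 units in siPKCiz (SE; limma adjusted p = 3.23e-06) and by 2.89 ± 0.27 in siControl (1.11e-06), and MMP1, a collagenase, by 2.17 in siPKCiz and 2.19 in siControl. SERPINE2, a serine protease inhibitor, was higher by 1.27 in siPKCiz and 1.37 in siControl. MMP9, another gelatinase, was called higher in both arms, but its untreated means, 6.21 log2 in siPKCiz and 6.31 in siControl, lay among the levels of the hepatocyte and endothelial markers, as did MMP1 in untreated siPKCiz (6.38), so these sizes rest on a baseline not shown to be above background. Silencing lowered 7 of the 22, beside 8.17% of all genes, and raised 2, beside 11.8%, in the mean of the conditions. MMP2 was at -0.60 ± 0.15 with all arrays and -0.90 ± 0.08 without replicate 1, and MMP1 at -0.69 ± 0.18 and -0.98 ± 0.16. In MMP2 at 24 h replicate 1 stood the other way from the rest, with 12.09 log2 in siPKCiz against 11.87 in siControl, beside 11.27 and 11.33 in siPKCiz against 12.38 and 12.30 in siControl in replicates 2 and 3. PAPPA, the IGFBP4 protease, was lower at 8 h in siControl (-0.62 ± 0.13, limma adjusted p = 0.00422). In siPKCiz its mean was 10.99 log2 at 8 h against 11.22 without TGFβ, and it was not called. At 24 h the change was -0.05 in siPKCiz and -0.09 in siControl.

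Relatives of the family that share its N-terminal domain were followed as well. Of 13 measured, 2 were higher and 2 lower at 24 h in siPKCiz, and 3 higher and 1 lower in siControl, beside 10.7% of all genes called in siPKCiz and 12.3% in siControl. CCN2, or CTGF, a TGFβ target gene, was higher at 24 h by 0.64 ± 0.18 log2 units in siPKCiz (SE; limma adjusted p = 0.0302) and by 0.88 ± 0.18 in siControl (0.00301). The serine protease HTRA1, which the protease list also holds, was higher by 0.56 in siPKCiz (0.000488) and 0.53 in siControl (0.000646). CCN1 changed by 0.57 in siPKCiz (0.113) and was higher by 1.13 in siControl (0.00159), and in the mean of the conditions silencing lowered it by -0.55 ± 0.13 (0.00438), and by -0.83 ± 0.06 without replicate 1 (2.26e-08). CCN5 was lower at 24 h by -0.30 in siPKCiz (0.0213) and by -0.43 in siControl (0.00137), and was higher with silencing by 0.50 ± 0.05 (9.34e-07), and by 0.45 ± 0.05 without replicate 1 (5.45e-06).

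**Figure D4:**
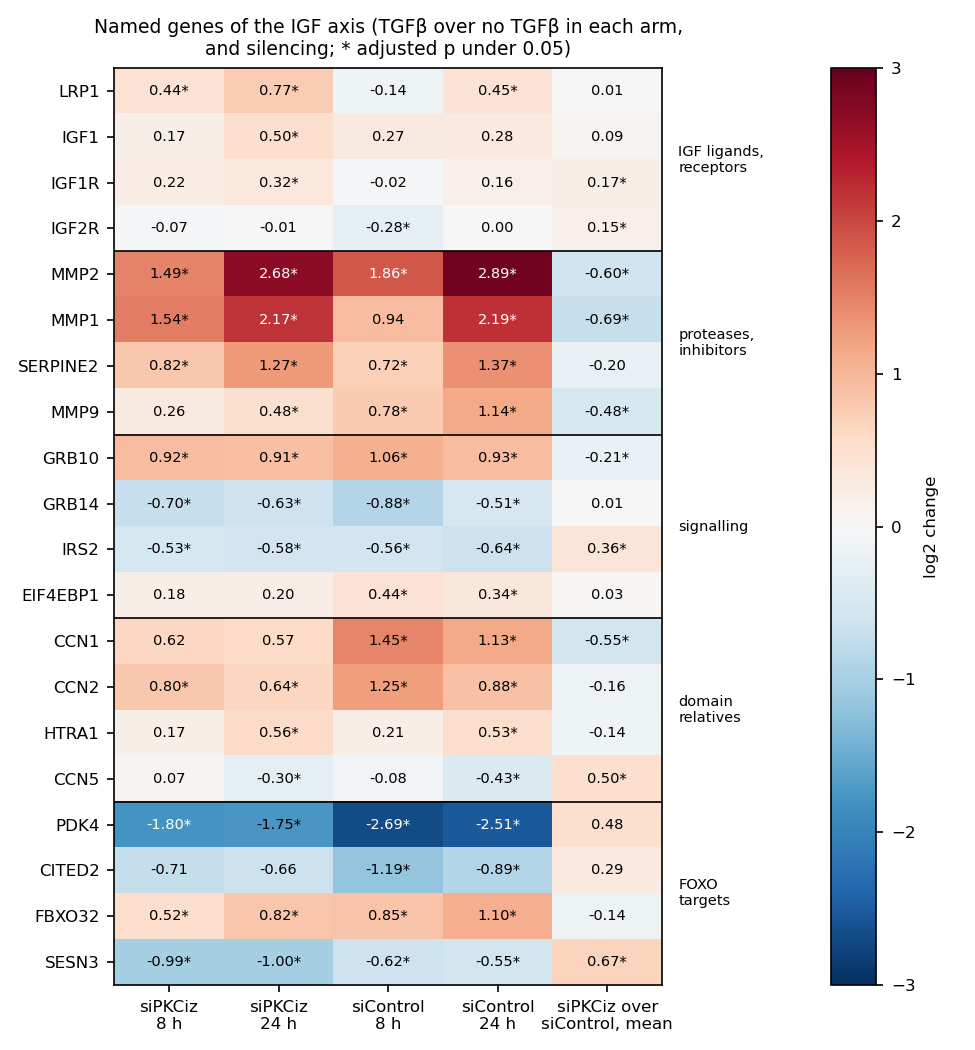
Log2 change of the named genes of the IGF axis (rows, grouped by list) after TGFβ at 8 h and 24 h in siPKCiz and in siControl, and in siPKCiz over siControl as the mean of the conditions; the colour is the value printed in the cell and a star marks a limma adjusted p under 0.05. MMP2 and MMP1 hold the largest positive values and PDK4 the largest negative ones (-2.69 in siControl at 8 h).

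Inside the cell, the count of insulin and IGF signalling genes called after TGFβ was near the share of all genes. Of 27 measured, 1 was higher and 2 lower at 24 h in siPKCiz (10.7% of all genes called), and 2 higher and 2 lower in siControl (12.3%), while silencing raised 7 (11.8% of all genes) and lowered 2 (8.17%). GRB10, an adaptor that restrains the receptors, was higher at 24 h by 0.91 ± 0.11 log2 units in siPKCiz (SE; limma adjusted p = 2.31e-05) and by 0.93 ± 0.11 in siControl (1.52e-05). IRS2, a docking protein of both receptors, was lower by -0.58 in siPKCiz (9.9e-05) and by -0.64 in siControl (3.12e-05) at 24 h, and was higher with silencing by 0.36 ± 0.05 (3.66e-05), and by 0.44 ± 0.05 without replicate 1 (6.92e-06). GRB14, a relative of GRB10, was lower at 24 h by -0.63 in siPKCiz and by -0.51 in siControl, and EIF4EBP1, which restrains translation, was higher by 0.34 in siControl (0.0157), beside a change of 0.20 in siPKCiz (0.165).

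FOXO and insulin-repressed target genes, a list that IGFBP1 is known to belong with, had 3 of 21 higher and 5 lower at 24 h in siPKCiz, and 1 higher and 5 lower in siControl, beside 10.7% of all genes called in siPKCiz and 12.3% in siControl. PDK4, a kinase that shuts off pyruvate oxidation, was lower at 24 h by -1.75 ± 0.32 log2 units in siPKCiz (SE; limma adjusted p = 0.00129) and by -2.51 ± 0.32 in siControl (3.39e-05). SESN3 was lower by -0.999 in siPKCiz (8.1e-05) and by -0.55 in siControl (0.0117), and FBXO32, a ubiquitin ligase subunit, was higher by 0.82 in siPKCiz and 1.10 in siControl. IRS2 and INSR are also on this list. With silencing 6 of the 21 were higher, beside 11.8% of all genes, and 2 lower, beside 8.17%, in the mean of the conditions. SESN3 was among the higher ones at 0.67 ± 0.08 (1.22e-05), and at 0.81 ± 0.07 without replicate 1 (1.94e-07). Its siControl arrays at 24 h (116.7, 98.7 and 72.4 intensity units) lay among the levels of the hepatocyte and endothelial markers. The SESN3 sizes therefore rest in part on values not shown to be above background.

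The genes whose pattern was most like that of IGFBP5 were named by Pearson r of log2 intensity over the 18 arrays, among the 9188 genes with a mean above the median gene. ARSA had the highest r (0.90), followed by GPC6 (0.89), SEMA3C (0.87), ADO (0.86) and WIPI1 (0.86). The most opposed were CCDC9 (-0.89), RAP1GAP2 (-0.88) and NXN (-0.86). These values describe 18 arrays that share groups and replicate numbers, and no p is given.

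**Figure D5:**
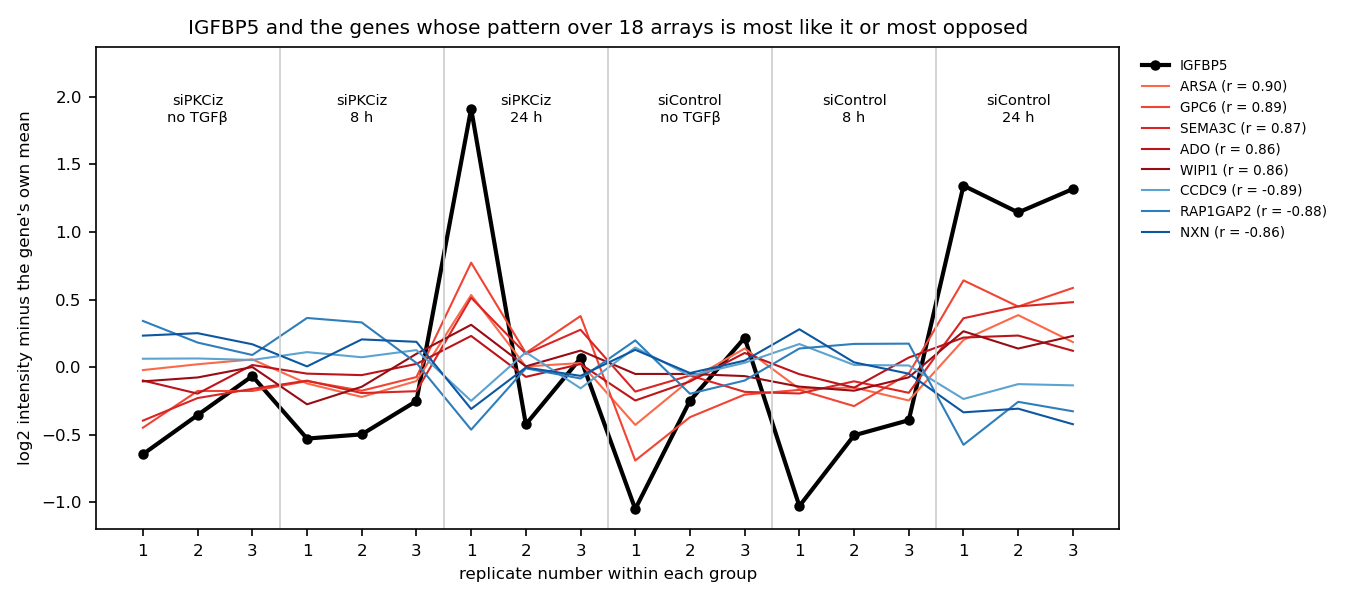
Log2 intensity minus the gene's own mean over all arrays (vertical axis) for IGFBP5, the 5 genes most like it and the 3 most opposed, in each of the 18 arrays by group and replicate number (horizontal axis). The like genes are high in the siControl arrays at 24 h and in the siPKCiz replicate 1 array at 24 h, where IGFBP5 was at 830.5, and the opposed genes are low there. The genes were picked by r with IGFBP5 over these same arrays, so this pattern follows from the choice.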

How the data were processed

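RNA of 18 A549 samples was measured on Affymetrix whole-transcript arrays. The authors deposited linear intensity values after RMA, made with RMA and Partek per the submitters' processing notes; their versions and the genome build are not given in the sources used here. Intensity lay between 21.2 and 51230, with array medians between 156.1 and 160.7. The log2 of the deposited intensity was taken once, with no other normalization or filter; the plan had assumed values already on a log2 scale.

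Of 28869 probe sets, 19310 carried 1 gene symbol, 1752 several and 7807 none listed; where a gene had several, the brightest by mean over all arrays stood for it, which left 18377 genes. Groups came from the sample labels. limma 3.58.1 in R 4.3.3 fitted 6 group means over all arrays (12 residual and 18.1 total degrees of freedom; trend and robust off), with Benjamini-Hochberg adjustment over all genes of a comparison. Over all genes the SE of a TGFβ change had a median of 0.1 log2 units. The procedure was tested on simulated data.

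The text names IGFBP1 to IGFBP7, PRKCI and PRKCZ, up to 4 called genes of each list with the largest change, and the genes most like or opposed to the member with the widest range. PAPPA, INSR and the marker genes were named outside this rule after their values were seen. The members and lists were chosen with earlier results of these data known. Alternatives covered a replicate block, a dim-gene filter, quantile normalization, median centring, moderation, array weights, only the groups compared, all probe sets, a 1.5-fold minimum, and leaving out each array or replicate number.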

Additional observations from a re-analysis of the deposited data

Results flagged for a closer look

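IGFBP3 had differences of opposite sign between 24 h and 8 h in the arms, neither of which passed: -0.13 log2 units in siPKCiz (limma adjusted p = 0.752) and 0.28 in siControl (0.358), with overlapping groups in both. Each siPKCiz array at 24 h lay below the mean of the siPKCiz arrays at 8 h, at differences from -0.18 to -0.08 log2 units, and each siControl array at 24 h lay above its own 8 h mean, by 0.002 to 0.45. The mean change of siPKCiz minus that of siControl was -0.41 log2 units. This difference was not tested. IGFBP3 was flagged by a search of the measured members and their changes within each arm for arrays moving in opposite directions. The smallest of its moves, 0.002 in siControl, was close to no change. The share of all genes with such a pattern is not given here, so nothing is read from this pattern.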

How the results depend on the processing

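Each result was recomputed under 30 alternatives. Of 2160 values of single members under an alternative, 2120 kept their side of the threshold, 23 no longer passed and 17 newly passed. The sign was opposite, or the value 0, in 106 of the 2160, of which 0 were called under either setting. The dim-gene filter kept 6 of 6 members and 9720 genes. Replicate numbers did not pair the samples: correlations of same-numbered deviations lay between -0.51 and 0.26, 7 of 45 over 0.1, and 0 arrays were closest to their own number. With the replicate block the number of members called changed in 0 of 12 comparisons; IGFBP7 at 24 h in siPKCiz stayed at 0.47 log2 units with a limma adjusted p of 0.0349.

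The number of members called at 24 h of TGFβ in siPKCiz was 1, and it was 0 both with only the arrays compared (IGFBP7 adjusted p = 0.0766) and with a fold change of at least 1.5. In siControl 2 became 1 with that fold. For the mean silencing difference 2 became 0 with it. Array weights gave 1 in place of 0 for silencing at 8 h and at 24 h, IGFBP1 in both (0.71 and 0.63 log2 units). Leaving out a single array or a replicate number gave 0 to 2 for TGFβ at 24 h in siPKCiz, 0 to 3 in siControl, 0 to 1 for 24 h over 8 h in siControl (IGFBP5, chosen by that difference, so no test of it), 0 to 1 for silencing without TGFβ and at 8 h, 0 to 4 at 24 h, 0 to 4 for its mean and 0 to 1 for its effect on the 24 h response. IGFBP5 is also among the members in the highest counts for TGFβ at 24 h in siControl, for silencing at 24 h and for its mean. In the 24 h response it is the only member called. All of these use the siControl 24 h arrays, so its calls there are no support. Leaving out any replicate number leaves 2 arrays a group, and the share of all genes called differed by which number was left out. For TGFβ at 24 h it was 9.45% (siPKCiz) and 15.6% (siControl) without replicate 1. It was 4.42% and 4.14% without replicate 2, and 4.24% and 4.11% without replicate 3. Without replicates 1, 2 and 3 silencing at 24 h had 11.3%, 0.0979% and 0.109%, and its mean 31.4%, 4.55% and 4.56%. Shares for single arrays left out are not given here. The part of the number of arrays in a lost call was not tested. With 3 arrays a group, IGFBP5 had a standard error of 0.40 log2 units, the largest among the members.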
